A study of Drosophila melanogaster with 4 samples.

Results

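The proteasome is the protease complex that degrades proteins tagged with ubiquitin, and its subunit genes were followed here in whole Drosophila melanogaster females after different matings. Members were taken by gene name, as every probe set whose updated symbol begins with Prosalpha, Prosbeta, Rpn or Rpt followed by a number, and 42 of the 14009 probe sets in the deposited table met this. They stood for 26 subunit genes and 13 paralogues with T or R after the number, plus 1 probe set shared by Prosalpha1 and Prosalpha1R. All 26 subunit genes passed the filter on dim probe sets and 0 of the 13 paralogues did. The genes Prosbeta1, Rpn9, Rpn10, Rpt1, Rpt6, Prosbeta5R2 and Rpt6R were not analysed here.

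All females came from an inbred Canton S stock without mutant alleles, were 3 to 4 days old and reared at 25 °C, and their RNA was measured on Affymetrix Drosophila GeneChips. In the wild-type group they had mated with Canton S males, which pass both sperm and accessory gland proteins (Acps). In the spermless group they had mated with sons of tudor, whose fathers were Canton S and whose mothers were bw sp tud1. These males have intact accessory glands and pass Acps without sperm. In the DTA-E group they had mated with males of a transgenic stock in a Canton S background that make no sperm and no Acps from the main cells, which are 96% of the secretory cells of the gland. Virgin females were unmated. Mated females were frozen 1 to 3 h after mating, and each group was a pool from which 50 flies gave 2 RNA extractions and 4 chips. The table holds 1 column per group, so there was no test, no p-value and no replicate error for a condition, and each difference below is between 2 columns.

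As background, the 26S proteasome has a core particle, a barrel of stacked rings of alpha and beta subunits with the proteolytic sites inside, and a regulatory particle that caps it. The base of the cap holds a ring of Rpt ATPases that unfold the substrate and thread it in, and the lid removes the ubiquitin chain. In many animals the subunit genes are controlled together, and in flies the factor encoded by cnc takes part in raising them when proteasome activity is short. The testis uses its own set of paralogous subunits.

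Levels are given as the deposited log value minus the median of that column over the 6534 probe sets compared, so 0 is the middle of a column. The base of the log is not stated. It was read as log2, on which the 1.2-fold threshold is a difference of 0.26; were the values natural logs, that difference would be 1.3-fold. Levels of different probe sets cannot be set against each other, only columns within a probe set. The technical error comes from the 294 genes with several probe sets, among which the SD of a difference between probe sets of a gene was 0.079 to 0.093. Variation between pools of flies is not part of it. In bulk RNA of whole females, fewer cells of a type and less RNA per cell cannot be told apart.

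**Figure D1:**
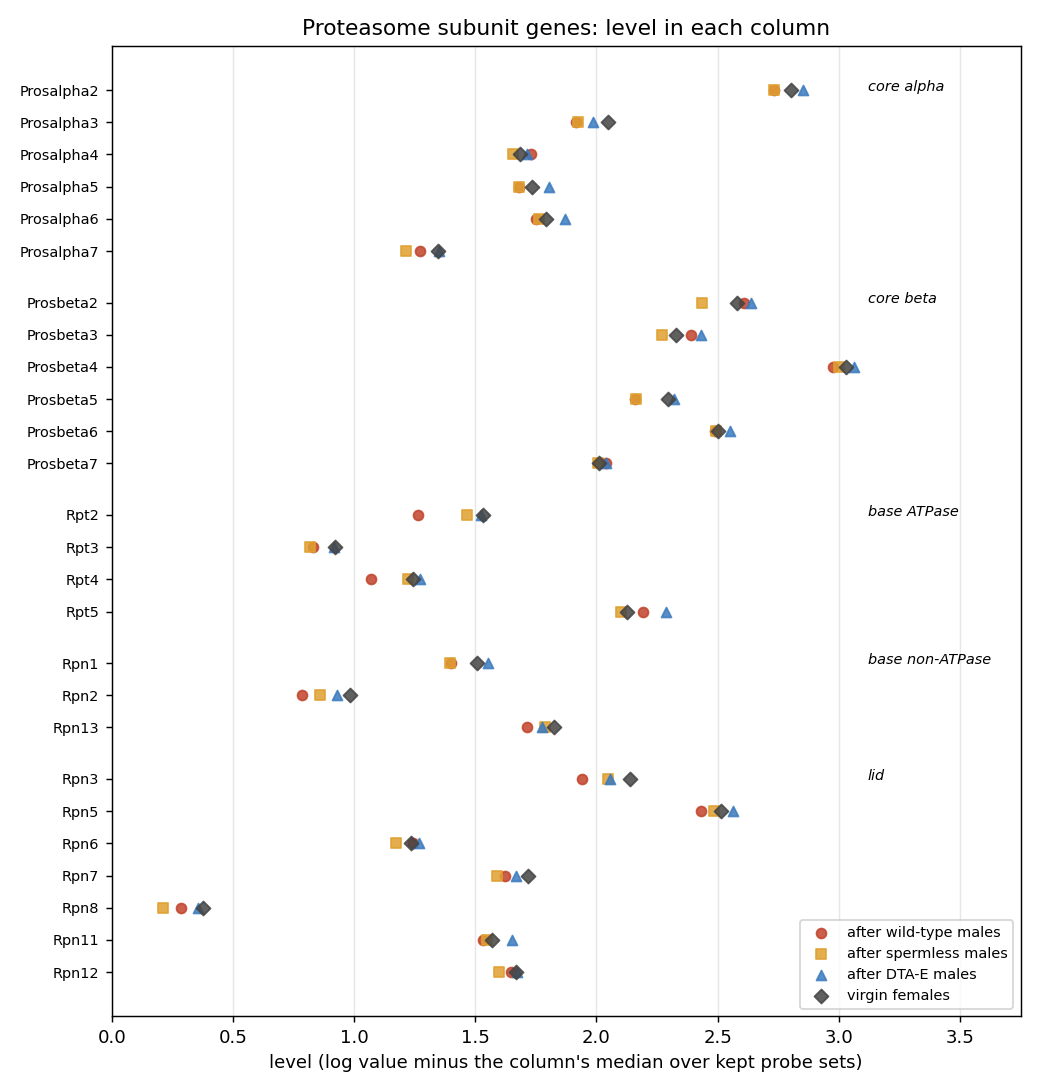
Level of each of the 26 subunit genes (rows, grouped by place in the complex) in the 4 columns, as the log value minus the column's median. The 4 symbols of a gene lie within 0.031 to 0.27 of each other; Rpt2 has the widest spread and Prosbeta7 the narrowest, and rows are not to be compared with each other.

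The differences were small throughout. A gene's highest and lowest column lay 0.031 to 0.27 apart, with a median of 0.13, against a median of 0.12 over all 6201 genes compared. The DTA-E column was the highest for 17 of the 26 subunit genes (26.8% of all genes), the virgin column for 8 (21.1%), the wild-type column for 1 (29.1%) and the spermless column for 0 (23%). The lowest column was wild-type for 13 genes (26.6% of all genes) and spermless for the other 13 (26%). Among the 2081 other genes whose mean level lay in the range of the subunit genes, the DTA-E column was highest in 39.4% and lowest in 8.99%. The wild-type column was lowest in 36.5% of those genes and the spermless column in 35.1%. These counts restate the pairwise differences and are not separate evidence. The column medians in the plot of profiles lie close together for the wild-type and spermless groups, and higher for the DTA-E and virgin groups.

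**Figure D2:**
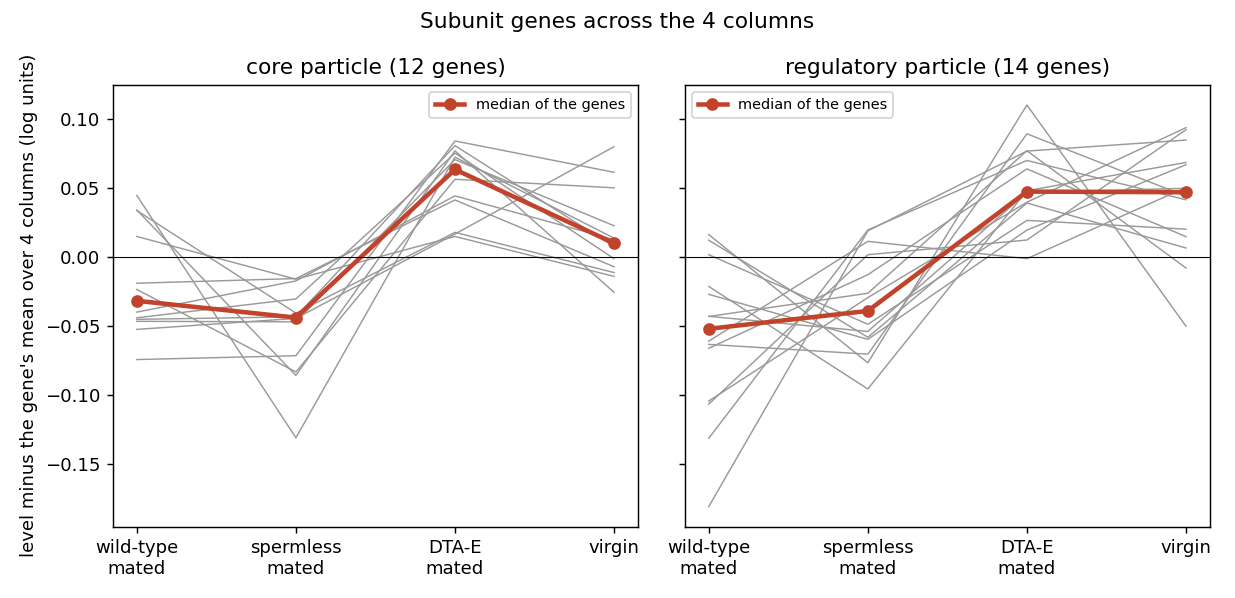
Level of each subunit gene minus its own mean over the 4 columns (grey lines; vertical axis in log units), for 12 core genes at left and 14 regulatory genes at right, with the median over genes in red. For most genes the 2 points at left, after wild-type and after spermless males, are below the 2 at right, after DTA-E males and in virgin females; after quantile normalization the core medians of wild-type minus DTA-E and wild-type minus virgin are above 0.

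The alpha subunits form the outer rings of the core and the gate through which substrates enter. Prosalpha2 had a level of 2.73 after wild-type males, 2.73 after spermless males, 2.85 after DTA-E males and 2.80 in virgin females. The wild-type and spermless columns were below the DTA-E and virgin columns in that gene, and the differences were -0.12 for spermless minus DTA-E and -0.070 for spermless minus virgin. Prosalpha5 had 1.68 after wild-type males, 1.68 after spermless males, 1.81 after DTA-E males and 1.73 in virgin females. Prosalpha6 had 1.75 after wild-type males, 1.76 after spermless males, 1.87 after DTA-E males and 1.79 in virgin females. In these 3 genes the DTA-E column was the highest. Prosalpha7 had 1.27 after wild-type males, 1.21 after spermless males, 1.35 after DTA-E males and 1.35 in virgin females, with the spermless column lowest at -0.13 against virgin females and -0.14 against the DTA-E group. For Prosalpha3 the values were 1.92 after wild-type males, 1.92 after spermless males, 1.99 after DTA-E males and 2.05 in virgin females, so it was the 1 core gene with its highest value in virgin females, and it differed by -0.13 for wild-type minus virgin and -0.12 for spermless minus virgin. Prosalpha4 had 1.73 after wild-type males, 1.66 after spermless males, 1.72 after DTA-E males and 1.69 in virgin females, and was the 1 subunit gene whose wild-type value was the highest. The probe set shared by Prosalpha1 and Prosalpha1R cannot tell its 2 genes apart, and differed by -0.13 for spermless minus DTA-E and -0.14 for wild-type minus DTA-E.

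The beta subunits form the inner rings, and 3 kinds of proteolytic site lie on them. Prosbeta5, the subunit of the chymotrypsin-like site, had a level of 2.16 after wild-type males, 2.16 after spermless males, 2.32 after DTA-E males and 2.30 in virgin females. The wild-type and spermless columns lay below the others by similar amounts, with -0.14 for wild-type minus virgin and -0.13 for spermless minus virgin. Prosbeta2, which carries the trypsin-like site, had 2.61 after wild-type males, 2.44 after spermless males, 2.64 after DTA-E males and 2.58 in virgin females. Here the spermless column alone was low. The difference was -0.20 for spermless minus DTA-E, a value that 2.35% of all genes reached or passed, and 0.18 for wild-type minus spermless, which 2.31% of all genes reached. Prosbeta3, a structural beta subunit, had 2.39 after wild-type males, 2.27 after spermless males, 2.43 after DTA-E males and 2.33 in virgin females, with its spermless value also the lowest, and differed by -0.16 for spermless minus DTA-E and 0.12 for wild-type minus spermless. Prosbeta4 (0.084), Prosbeta6 (0.060) and Prosbeta7 (0.031) varied least among the core beta genes, as the difference between highest and lowest column shows. Prosalpha7 and Prosbeta6 each have a further probe set that was below the filter. These dim probe sets went the other way, with 0.051 and 0.11 for spermless minus DTA-E, against -0.14 and -0.057 in the kept ones. In that comparison 95% of the 5908 dim probe sets were higher, with a median of 0.097.

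Among the base ATPases, Rpt2 had the largest difference between 2 columns. Its level was 1.26 after wild-type males, 1.46 after spermless males, 1.52 after DTA-E males and 1.53 in virgin females, so the wild-type column alone was low. The difference of -0.27 for wild-type minus virgin was the only one past 1.2-fold among the 26 genes taken by name. This covers all 6 pairwise comparisons. In wild-type minus virgin 3.77% of all genes and 6.15% of the other genes in the range of level were lower past 1.2-fold. A count of 1 in 26 is near the share of all genes, and 0 of the 26 passed 1.5-fold. The Rpt2 difference was -0.23 with the intensity trend removed, -0.21 after quantile normalization and -0.24 under the stricter filter, each short of the threshold. Rpt4 had 1.07 after wild-type males, 1.22 after spermless males, 1.27 after DTA-E males and 1.24 in virgin females, and was also lowest after wild-type males, at -0.17 against virgin females and -0.20 against the DTA-E group. Rpt3 had 0.83 after wild-type males, 0.82 after spermless males, 0.92 after DTA-E males and 0.92 in virgin females, with the wild-type and spermless columns together below the others. Rpt5 had 2.19 after wild-type males, 2.10 after spermless males, 2.29 after DTA-E males and 2.13 in virgin females. It was the ATPase with the highest DTA-E value relative to virgin females, at 0.16, and in the opposite order to Rpt2 its wild-type value was above its spermless value, by 0.093.

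Of the other base genes, Rpn1 and Rpn2 encode the large scaffolds that dock substrate carriers. Rpn1 had 1.40 after wild-type males, 1.39 after spermless males, 1.55 after DTA-E males and 1.51 in virgin females, and differed by -0.16 for spermless minus DTA-E and -0.15 for wild-type minus DTA-E. Rpn2 had 0.79 after wild-type males, 0.86 after spermless males, 0.93 after DTA-E males and 0.98 in virgin females, with the wild-type and spermless columns again below the others, and differed by -0.20 for wild-type minus virgin. Rpn13, a ubiquitin receptor of the base, had 1.72 after wild-type males, 1.79 after spermless males, 1.77 after DTA-E males and 1.83 in virgin females. It was the only subunit gene that was not lower after spermless than after DTA-E males, at 0.013.

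The lid holds Rpn11, the metalloprotease that cuts ubiquitin off, and its partner Rpn8. Rpn11 had 1.53 after wild-type males, 1.55 after spermless males, 1.65 after DTA-E males and 1.57 in virgin females, so that its DTA-E column stood above the 3 others, by 0.085 against virgin females. Rpn8 had 0.29 after wild-type males, 0.21 after spermless males, 0.36 after DTA-E males and 0.38 in virgin females. Its spermless column was the lowest and differed by -0.16 from virgin females, the largest spermless minus virgin difference of any subunit gene. The scaffold gene Rpn3 had 1.94 after wild-type males, 2.05 after spermless males, 2.06 after DTA-E males and 2.14 in virgin females, lowest after wild-type males at -0.20 against virgin females. Rpn7 had 1.62 after wild-type males, 1.59 after spermless males, 1.67 after DTA-E males and 1.72 in virgin females, and the spermless column differed from virgin females by -0.13. The scaffold genes Rpn5 (-0.13), Rpn6 (-0.027) and Rpn12 (-0.025) were all lower after wild-type than after DTA-E males, Rpn6 and Rpn12 by less than the SD between probe sets.

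Spermless males pass Acps and no sperm, and set against virgin females their mates had the most uniform shift. All 26 subunit genes were lower, against 47.7% of all genes. The median was -0.055 for the 12 core genes and -0.067 for the 14 regulatory genes, against 0.0048 over all genes, and the 26 differences ran from -0.16 to -0.0021. By more than the SD between probe sets of 0.079, 10 of the 26 were lower, against 16% of all genes and 23.1% of the genes in the range of level. In either direction 38.5% of the 26 passed that SD, against 36.6% of all genes and 38.2% of the genes in the range of level. Among the 2081 other genes in the same range of level, 58.5% were lower and the median was -0.017. Over the 7 alternative settings the core median was -0.11 to -0.036 and the regulatory median -0.12 to -0.048, and 23 to 27 genes were lower, the 27 including the shared probe set. The setting with the brightest probe set could not change any of the 26 genes.

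Main-cell Acps, stock and pool cannot be told apart in spermless minus DTA-E, as the groups have no replicate columns. Neither kind of male passes sperm in this comparison. There 25 of 26 subunit genes were lower, all except Rpn13, against 49.1% of all genes. The core median was -0.11, the regulatory median -0.078 and the median of all genes 0.0019. By more than the SD between probe sets, 7 core and 6 regulatory genes were lower, or 50% of the 26, against 18.8% of all genes and 31.3% of the genes in the range of level. In either direction the shares were 50% of the 26, 35.6% of all genes and 43.6% of the genes in the range of level. Bright genes as a whole were lower in this comparison, with 66.7% of the genes in the range of level below 0 and a median of -0.046. Over the 7 alternative settings the core median was -0.16 to -0.059 and the regulatory median -0.14 to -0.028. With the intensity trend removed the direction held, with 21 of 26 genes lower and medians of -0.059 for the core and -0.028 for the regulatory particle.

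Wild-type minus DTA-E, in which the males differ in main-cell Acps, sperm and stock, also had 25 of 26 genes lower. Prosalpha4 was the exception, and 51.7% of all genes were lower. The medians were -0.074 for the core and -0.11 for the regulatory particle. The share of genes in the range of level that were lower was 70.6%, with a median of -0.048. By more than the SD between probe sets of 0.092, 12 of the 26 were lower, against 17.9% of all genes and 31.4% of the genes in the range of level. In either direction the shares were 46.2% of the 26, 33.2% of all genes and 39.5% of the genes in the range of level. The direction of the core depended on the scaling: with the intensity trend removed its median was -0.0069 and 6 of 12 genes were lower, and after quantile normalization its median was 0.013 and 5 of 12 were lower. In the regulatory particle 10 of 14 genes were lower under both, with medians of -0.050 and -0.041. Over the 7 alternatives the core median was -0.10 to 0.013 and the regulatory median -0.15 to -0.041. The base ATPases were the lowest subgroup, with all 4 measured genes lower and a median of -0.15.

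Between wild-type and virgin females the 2 particles differed more. The regulatory median was -0.093 with 12 of 14 genes lower, and the core median -0.048 with 8 of 12 lower, so 20 of 26 were lower in all, against 46.4% of all genes. Lowest were Rpt2 (-0.27), Rpn3 (-0.20), Rpn2 (-0.20) and Rpt4 (-0.17) of the regulatory particle, and Prosbeta5 (-0.14) and Prosalpha3 (-0.13) of the core. Rpt5 (0.066), Prosbeta3 (0.060), Prosalpha4 (0.045), Prosbeta7 (0.029), Prosbeta2 (0.031) and Rpn6 (0.0057) were higher, each by less than the SD between probe sets of 0.093. By more than that SD 9 of the 26 were lower, against 15.9% of all genes and 25% of the genes in the range of level. In either direction the shares were 34.6% of the 26, 34% of all genes and 38.4% of the genes in the range of level. Over the 7 alternatives the regulatory median was -0.13 to -0.046 and the core median -0.073 to 0.051, the highest core value being that after quantile normalization, with 9 of 12 core genes higher. In the range of level of the subunit genes 58.1% of other genes were lower, and their median was -0.019.

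DTA-E minus virgin sets a mating without sperm and main-cell Acps against none. The mating and the pool cannot be told apart, as each group has a single column. In the core 11 of 12 genes were higher, with a median of 0.040, while in the regulatory particle 7 were higher and 7 lower, with a median of 0.0017. In all, 18 of 26 were higher, against 54.5% of all genes and 60.1% of the genes in the range of level. The median of those genes in the range of level was 0.022. The core median stayed above 0 in all 7 alternatives, and the regulatory median was below 0 in 3 of them, at -0.024 with the trend removed, -0.010 under the stricter filter and -0.0082 after quantile normalization. Only Rpt5 (0.16), Prosbeta3 (0.10) and Rpn11 (0.085) passed the SD between probe sets of 0.084, which is 11.5% of the 26, against 15.3% of all genes and 22% of the genes in the range of level higher past it.

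Wild-type minus spermless, in which the males differ in sperm and stock, split the subunit genes evenly, with 13 lower and 13 higher. Of all genes 45.3% were lower. The parts of sperm, stock and pool cannot be told apart, as the groups have no replicate columns. Prosbeta2 (0.18), Prosbeta3 (0.12) and Rpt5 (0.093) were the highest, and Rpt2 (-0.20), Rpt4 (-0.15) and Rpn3 (-0.11) the lowest. These 6 were past the SD between probe sets of 0.090, which is 23.1% of the 26, a smaller share than the 29.4% of all genes and 40.2% of the genes in the range of level past it in either direction. The medians near 0, -0.00074 for the core and -0.0049 for the regulatory particle, had no settled sign, and the core median was 0.11 after quantile normalization. The 4 base ATPases spanned -0.20 to 0.093, with an SD across genes of 0.14, against 0.20 across the other genes in the range of level.

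**Figure D3:**
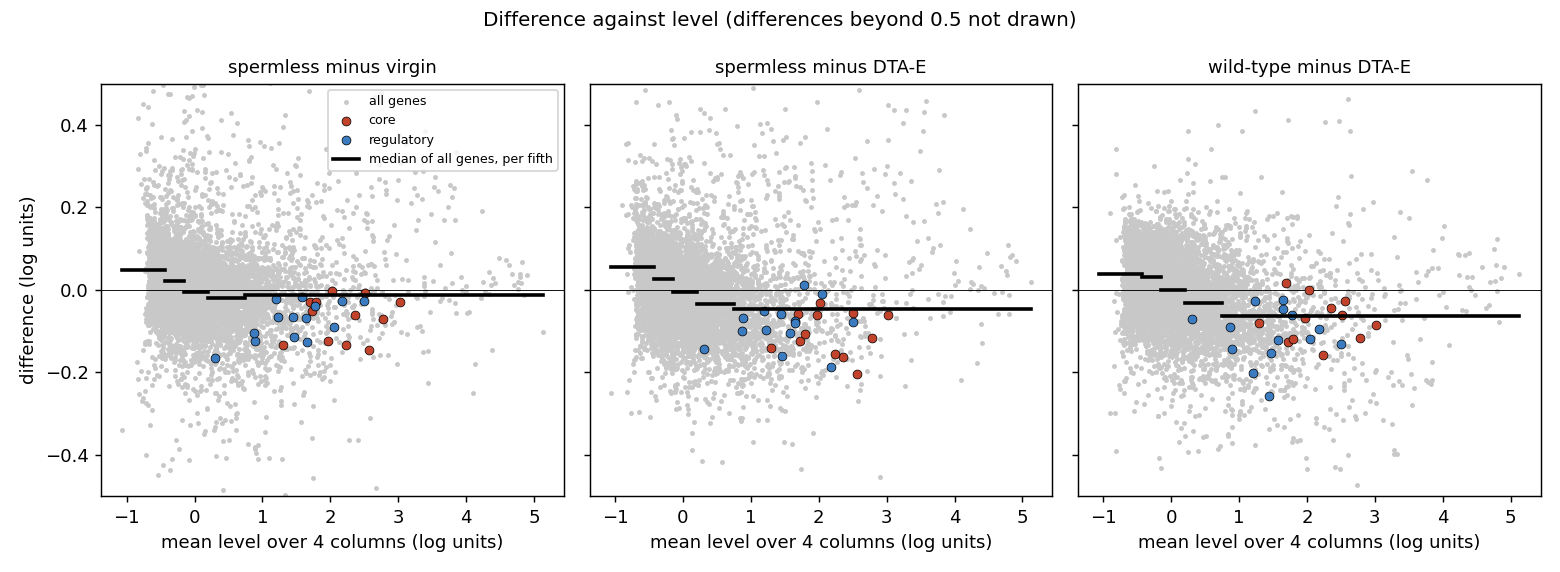
Difference between 2 columns (vertical axis, log units) against mean level (horizontal axis, log units) for all 6201 genes (grey), 12 core genes (red) and 14 regulatory genes (blue) in 3 comparisons, with black bars for the median of all genes in each of 5 equal bins of level. The bars descend with level in the comparisons with the DTA-E column, where the brightest bin has a median of -0.046 for spermless and -0.063 for wild-type, against medians of -0.088 and -0.087 over the 26 subunit genes; after quantile normalization the core median of wild-type minus DTA-E is 0.013.

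Properties of the columns moved with these values. The SD of the deposited values was 1.03 after wild-type and 1.03 after spermless males, against 1.07 after DTA-E males and 1.07 in virgin females. In spermless minus DTA-E the median ran from 0.057 in the dimmest of 5 equal bins of all genes to -0.046 in the brightest, which held 25 of the 26 subunit genes. The mean of 23 foreign control probe sets was -1.66, -1.61, -1.72 and -1.73 in the wild-type, spermless, DTA-E and virgin columns. The mean of 9 hybridization controls in the same order was 1.06, 0.99, 0.82 and 0.90, lowest in the column where subunit genes were highest. The excess of 3' over 5' probe sets, which is larger for less intact RNA or shorter products, was the highest in the DTA-E column for all 3 controls. It was 2.26 there for actin, against 1.95 to 2.02 in the other columns. For GAPDH it was 1.97, against 1.79 to 1.93. For eIF-4a it was 1.97, against 1.70 to 1.80. The part of the controls in the results above was not tested.

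Markers of the fat body and ovary of adult females were measured as a check of the label. The yolk protein genes Yp1, Yp2 and Yp3 had levels of 4.28 to 5.20 over all columns. Of the germline genes, osk had 2.59 after wild-type males, 2.36 after spermless males, 2.39 after DTA-E males and 2.35 in virgin females. The germ cell helicase gene vas had 0.89 after wild-type males, 0.76 after spermless males, 0.91 after DTA-E males and 0.92 in virgin females. The ovary gene bcd was highest after wild-type males, at 1.25, and lowest after spermless males, at 1.09. So vas and bcd were lowest in the spermless column, as were 13 of the 26 subunit genes. Both osk and bcd were highest after wild-type males, as was only 1 of the 26 subunit genes. The part of these ovary genes in the subunit values was not tested. All 7 measured accessory gland genes were below the filter. Of the 12 testis and spermatid probe sets 4 passed it, and the list's median level was -0.84, -0.84, -0.93 and -0.96 in the wild-type, spermless, DTA-E and virgin columns. Dim probe sets in general had the same direction. Among 5908 of them 86.5% were higher in wild-type minus virgin and 93.8% in spermless minus virgin. The brightest, Mst98Ca, had 0.44 after wild-type males, 0.42 after spermless males, 0.36 after DTA-E males and 0.35 in virgin females. Mst84Dc had 0.35 after wild-type males, 0.28 after spermless males, 0.25 after DTA-E males and 0.24 in virgin females. Both were highest after wild-type males, and both were above the filter in virgin females too. Of the other kept probe sets, Mst84Db was highest after spermless males, at -0.42, against -0.45 after wild-type males and -0.55 in virgin females. The probe set of bam was highest after wild-type males, at -0.62, against -0.75 after spermless males and -0.68 in virgin females.

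The testis paralogues were dim everywhere. Over the 13 of them, levels ran from -1.84 to -0.79 after wild-type males, -1.78 to -0.75 after spermless males, -1.86 to -0.86 after DTA-E males and -1.90 to -0.87 in virgin females. The ranges of the 4 columns overlapped, and the wild-type range did not lie above the spermless one. Prosalpha4T2 had -0.83 after wild-type males, -0.75 after spermless males, -0.89 after DTA-E males and -0.87 in virgin females. Prosalpha6T had -1.46 after wild-type males, -1.39 after spermless males, -1.54 after DTA-E males and -1.54 in virgin females. Rpt3R had -1.62 after wild-type males, -1.57 after spermless males, -1.61 after DTA-E males and -1.62 in virgin females. In all 3 the spermless column was the highest. In wild-type minus spermless the median over the 13 was -0.038 and 11 were lower, beside a median of -0.037 over the 5908 dim probe sets with 1 gene, of which 22.4% were higher. The lower ones were Prosalpha3T (-0.073), Prosalpha4T1 (-0.038), Prosalpha4T2 (-0.077), Prosalpha6T (-0.064), Prosbeta2R1 (-0.062), Prosbeta2R2 (-0.031), Prosbeta4R1 (-0.0054), Prosbeta4R2 (-0.056), Prosbeta5R1 (-0.0026), Rpt3R (-0.049) and Rpt4R (-0.0015). Only Rpn12R (0.028) and Rpn13R (0.054) were higher. In spermless minus virgin all 13 were higher with a median of 0.10, but so were 93.8% of the dim probe sets, with a median of 0.10. The paralogues therefore had values close to those of dim probe sets in general, and of the opposite sign to the subunit genes in that comparison.

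Genes that work with the proteasome were read from fixed lists. The 7 measured genes for accessory, assembly and inhibitor proteins had a median of -0.081 for spermless minus DTA-E, with all 7 lower. Sem1, a small lid subunit whose name does not begin with Rpn, had 1.99 after wild-type males, 1.74 after spermless males, 2.08 after DTA-E males and 1.87 in virgin females. Its spermless minus DTA-E difference of -0.35 was past 1.2-fold and larger than that of any gene named Prosalpha, Prosbeta, Rpn or Rpt. Pomp, the chaperone that assembles the beta rings, had 0.70 after wild-type males, 0.64 after spermless males, 0.81 after DTA-E males and 0.68 in virgin females, with the DTA-E column highest, as in Sem1. REG, the gene of the proteasome activator cap, was highest after DTA-E males and lowest in virgin females, with 0.17 for DTA-E minus virgin and 0.15 for wild-type minus virgin. The deubiquitinase gene Usp14 was lowest after wild-type males, at -0.17 against virgin females. In DTA-E minus virgin all 7 were higher, by a median of 0.050.

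Ubiquitin genes varied in order. RpL40, which encodes ubiquitin fused to a ribosomal protein, was within 0.016 in its 4 columns and highest after DTA-E males. The polyubiquitin gene Ubi-p63E had 3.48 after wild-type males, 3.37 after spermless males, 3.29 after DTA-E males and 3.36 in virgin females, highest after wild-type males. RpS27A, another such fusion, differed by 0.17 for wild-type minus DTA-E, and the conjugating enzyme gene ben by -0.24. Of the 8 measured ubiquitin, E1 and E2 genes, 4 were higher and 4 lower in that comparison. Among 6 shuttle and unfolding genes, Rad23, a carrier of ubiquitinated proteins, had 1.26 after wild-type males, 1.29 after spermless males, 1.45 after DTA-E males and 1.38 in virgin females, with the wild-type and spermless columns low. Npl4, a cofactor of the TER94 unfoldase, had 1.64 after wild-type males, 2.04 after spermless males, 1.84 after DTA-E males and 2.00 in virgin females, and was past 1.2-fold lower after wild-type males than in virgin females (-0.36) and than after spermless males (-0.39). TER94 itself differed by -0.12 for spermless minus DTA-E. Of the genes that control the proteasome genes, cnc ran from -0.41 to -0.35 over the columns and its partner maf-S differed by -0.10 for spermless minus DTA-E. The third, Pngl, an enzyme that removes sugar chains from proteins, differed by -0.041 there, and Keap1 was below the filter.

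Other large complexes were set beside the proteasome, with no test of the difference. In spermless minus virgin, where all 26 subunit genes were lower, 6 of 8 genes of the COP9 signalosome, a relative of the lid, were lower, and the list's median was -0.022. In the same comparison 3 of 21 vacuolar proton pump genes were lower, the median being 0.045, and 10 of 32 cytosolic ribosomal protein genes with a median of 0.018. Lower there were 47.7% of all genes. The complexes lie at unlike levels, with a median of 0.36 for the signalosome, 1.23 for the pump and 4.14 for the ribosomal proteins. In spermless minus DTA-E 25 of 26 subunit genes were lower, and so were 7 of 8 signalosome genes, led by CSN8 (-0.22), with alien at -0.12 and CSN4 at -0.037. Lower in that comparison were also 7 of 21 pump genes and 13 of 32 ribosomal protein genes, against 49.1% of all genes.

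**Figure D4:**
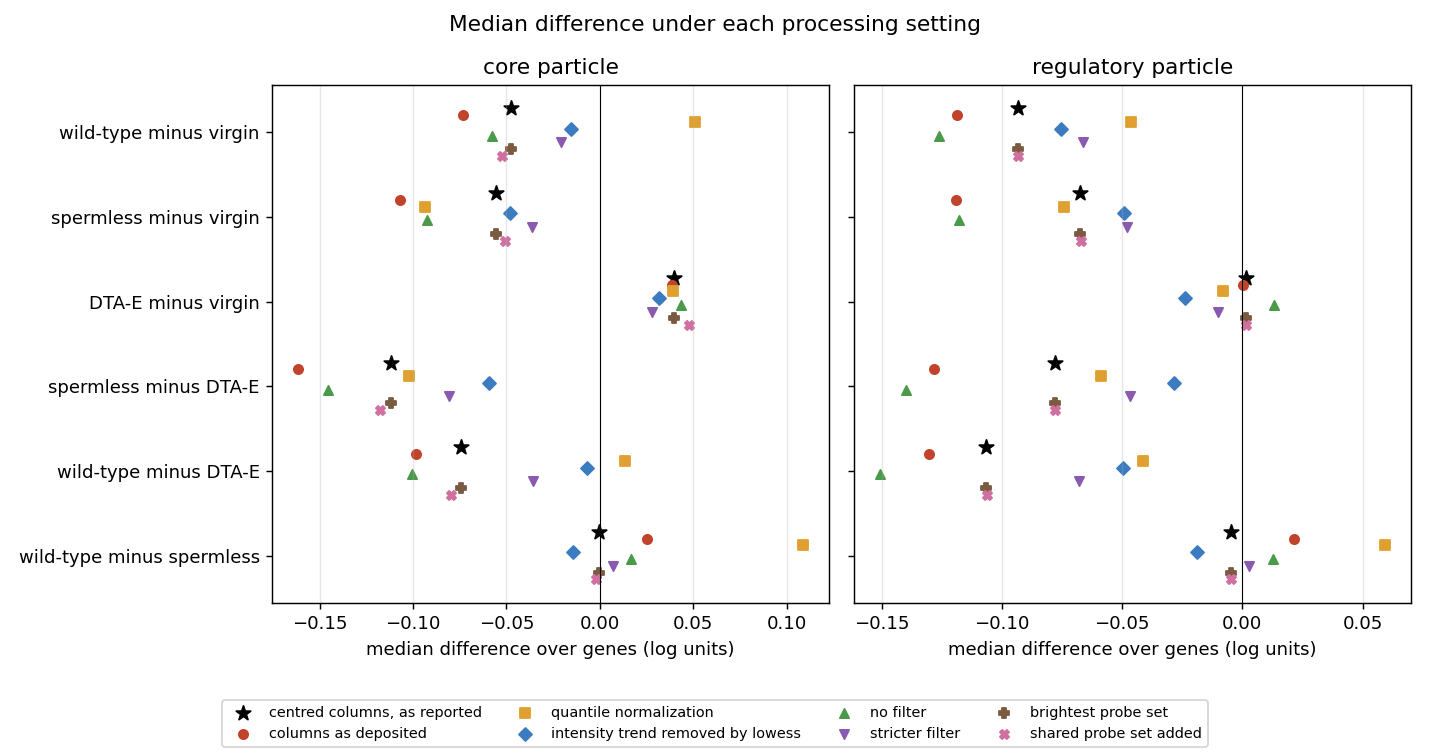
Median difference over the 12 core genes (left) and 14 regulatory genes (right) in the 6 comparisons, in log units, as reported (stars) and under 7 alternative settings (other symbols; the setting with the shared probe set has 13 core genes). Spermless minus virgin and spermless minus DTA-E stay below 0 throughout, whereas the core median of wild-type minus virgin and of wild-type minus DTA-E is above 0 after quantile normalization. The brightest probe set setting is the same as the reported one for these genes.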

How the data were processed

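The deposited table holds the authors' values for 4 groups of whole females, as logs of an unstated base that were read as log2; per the labels, each column stands for 4 chips. How chips were combined, and the image analysis and scaling, are not given in the sources used here. Gene names came from the annotation of the array platform, brought up to date through Entrez numbers in a table of RefSeq genes, which left 12442 probe sets with 1 symbol. A probe set was used if its highest column reached -0.18, the median of the whole table. The median of the used probe sets was subtracted from each column, and the mean was taken where a gene had several. The 44 control probe sets served only as quality values. With 1 column per group no test was made, and the number of arrays limits the precision.

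Members and lists were chosen with earlier results of these data known. Every member could be named, and the 3 genes of each pathway list with the largest absolute difference in any comparison. Pomp and RpL40 were named in addition, after their values were seen. Alternatives were columns as deposited, quantile normalization, a lowess curve (span 0.3, 3 iterations) subtracted to remove the intensity trend, no filter, a filter at the 75th percentile, the brightest probe set, the shared probe set added, and thresholds of 1.5-fold and 2-fold. The calculation was tested on simulated columns (seed 1). The tools were matplotlib 3.10.9, statsmodels 0.14.6, scipy 1.17.1, pandas 2.3.3 and numpy 2.4.6 under Python 3.11.15.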

Additional observations from a re-analysis of the deposited data

How the results depend on the processing

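With 1 column per group no alternative could leave out a replicate, and no paired analysis was possible because each group has a single column. Spermless minus virgin, spermless minus DTA-E and the core median of DTA-E minus virgin kept their direction in all 7 settings. The brightest probe set setting could not differ from the reported one, as no subunit gene had several kept probe sets. Adding the shared probe set could change regulatory values only through the column centres. These settings are therefore no check of the values they cannot change. After quantile normalization, wild-type minus virgin had a core median of 0.051 with 3 core genes lower, wild-type minus DTA-E had 5 core genes lower, and wild-type minus spermless had a core median of 0.11. With the intensity trend removed, 6 core genes were lower in wild-type minus DTA-E. In wild-type minus spermless the count of lower core genes, 6 as reported, was 0 as deposited and after quantile normalization, 1 with every probe set taken in and 3 when only probe sets above the 75th percentile were kept. Past 1.2-fold, quantile normalization gave 1 lower core gene in spermless minus DTA-E and 1 higher in wild-type minus spermless, and no filter gave 1 lower core gene in spermless minus DTA-E. The single regulatory gene past 1.2-fold in wild-type minus virgin, Rpt2, became 0 after quantile normalization, with the trend removed and under the stricter filter, and at thresholds of 1.5-fold and 2-fold. In wild-type minus DTA-E 1 regulatory gene was past 1.2-fold as deposited and without the filter, against 0 as reported. Without the filter the dim probe sets of Prosalpha7 and Prosbeta6 were averaged in. The cause of the other shifts was not tested.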

Other observations

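The 4 columns can be paired into comparisons that share no column. In wild-type minus virgin and in spermless minus DTA-E, in which a mating with main-cell Acps is set against none or against one lacking them, 19 of the 26 subunit genes were lower in both, which is 73.1%. The same held for 37.3% of other genes in the range of level and 25.9% of all genes. In spermless minus virgin and wild-type minus DTA-E, 25 of 26 were lower in both (96.2%), against 42% in the range of level and 30.1% of all genes. These counts come from the same 4 columns and hold one pattern, not 2. They were taken only with the main scaling and depend on it. After quantile normalization 13 of 26 were lower in wild-type minus virgin and 15 in wild-type minus DTA-E. With the intensity trend removed 18 and 16 were lower. The joint counts cannot be larger than these under those settings. Across the 26 subunit genes, which share chips and scaling, Pearson's r was -0.40 for the first pairing and 0.033 for the second, against -0.15 and 0.13 over all 6201 genes. In the third pairing, wild-type minus spermless with DTA-E minus virgin, it was 0.42 over the subunit genes and 0.29 over all genes.

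The spread among subunit genes was below that of other genes in their range of level. The SD across the 26 genes was 0.048 in spermless minus virgin, 0.053 in spermless minus DTA-E and 0.056 in DTA-E minus virgin, against 0.16, 0.16 and 0.14 across the 2081 other genes. It was 0.084 in wild-type minus virgin and 0.082 in wild-type minus spermless. Cytosolic ribosomal protein genes had SDs of 0.049 in spermless minus virgin, 0.066 in wild-type minus virgin and 0.061 in wild-type minus spermless. Their median level of 4.14 lay above that range, which ended at 3.02. COP9 signalosome genes had SDs of 0.030 in spermless minus virgin, 0.075 in spermless minus DTA-E and 0.087 in wild-type minus spermless.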
